A study of Homo sapiens with 4 samples.

Results

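The FOXP genes are the 4 members FOXP1, FOXP2, FOXP3 and FOXP4 of the forkhead transcription factors. They were taken by Ensembl identifier from a table of 60554 genes, and each identifier lay at the position of the RefSeq gene of that symbol on GRCh38. The table holds 4 libraries of IGROV1-R10, a human ovarian cancer line and a cisplatin-resistant derivative of IGROV1. Cells received 60 nM of a miRNA duplex that carried biotin, either miR-491-5p or, as control, a worm miRNA that the design text calls cel-miR-65. Nuclei and debris were spun out, a share of 10% of the lysate served as input, and what was left spent 4 h on streptavidin beads that were washed 5 times, which gave the pull-down. Each of the 4 groups (miR-491-5p input, miR-491-5p pull-down, control input, control pull-down) was sequenced as 1 library of RNA pooled from 3 experiments. No difference between the miRNAs therefore has a replicate check, and none is given a p-value. The libraries held 47679684 to 62582646 counted reads.

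FOXP proteins bind DNA through a forkhead (winged-helix) domain and pair with each other through a leucine zipper, and they act mostly as repressors. FOXP1, FOXP2 and FOXP4 are known from the lung, the gut and the nervous system, where their expression overlaps, and FOXP3 defines regulatory T cells. A miRNA guides an Argonaute protein to mRNAs that pair with its seed, usually in the 3′ UTR, and the bound mRNA is often destabilised. A direct target can thus be low in total RNA and yet be held by a biotin-carrying miRNA, and the enrichment used here divides the pull-down ratio by the input ratio. FOXP4 has been reported elsewhere as a target of miR-491-5p. The question here was whether its paralogues behaved alike.

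The sequence that the miR-491-5p beads carried is shown because each ratio with a miR-491-5p library depends on it. It is the mature human miRNA from RefSeq on GRCh38.p14 (chr9:20716120-20716141, plus strand), with the seed, bases 2 to 8, in capitals.
hsa-miR-491-5p: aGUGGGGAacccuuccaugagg
A site that pairs with the whole seed reads UCCCCAC in the mRNA. Of 2370 mature human miRNA names in that table, 1 had this seed, miR-491-5p itself. A miRNA hairpin lies inside 3 of the FOXP genes, MIR1284 in FOXP1, MIR3666 in FOXP2 and MIR4641 in FOXP4, and their mature miRNAs have other seeds. Transcript sequences of the FOXP genes were not used here, so seed matches in them were not counted.

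All levels below are reads divided by a DESeq2 size factor (normalised counts). Ratios are log2 of normalised counts plus 1, and intervals are 95% intervals of counting error, which do not cover the variation between cultures. The authors counted without reads marked as duplicates, and how many were marked is not known here. The reads carry no molecular identifiers that would tell PCR copies apart, so even the counting error can still be understated. A gene was measured when its mean normalised count was at least 50, as in 12662 genes. A call, higher or lower, needed a change of 2-fold or more and an interval that excluded 0. By this minimum 2 of the 4 FOXP genes were measured, FOXP1 with a mean of 331 and FOXP4 with a mean of 288.

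FOXP4 was low in the input and high on the beads with miR-491-5p, and FOXP1, at a like depth, was neither. FOXP4 (ENSG00000137166.14, chromosome 6, 41546426 to 41602384, plus strand, 6170 bases of annotated exon) had 125 reads in the miR-491-5p input and 536 in its pull-down. With the control miRNA it had 260 reads in the input and 284 in the pull-down. As normalised counts, in this order, these were 131, 433, 334 and 252. The miR-491-5p input was thus the lowest of the 4 libraries for FOXP4 and the miR-491-5p pull-down the highest, with both control libraries between them. FOXP1 (ENSG00000114861.18, chromosome 3, 70954693 to 71583989, minus strand, 13628 bases of exon) had 324, 352, 272 and 397 reads in the same order, or 339, 285, 349 and 353 normalised. For FOXP1 the lowest library was the miR-491-5p pull-down, and the other 3 lay close together.

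FOXP2 and FOXP3 were near or at the limit of detection. FOXP2 (ENSG00000128573.23, chromosome 7, 114086327 to 114693772), known for its role in speech and motor learning, had 4, 0, 0 and 5 reads in that order. A count of 0 was taken to allow up to 3 reads, which is a normalised level of 2.43 in the miR-491-5p pull-down and 3.85 in the control input. FOXP3 (ENSG00000049768.14, chromosome X, 49250436 to 49264826) had 3, 3, 0 and 1 reads. Neither gene has enough reads for a ratio, and whether they share the pattern of FOXP4 was not detectable at this depth.

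**Figure D1:**
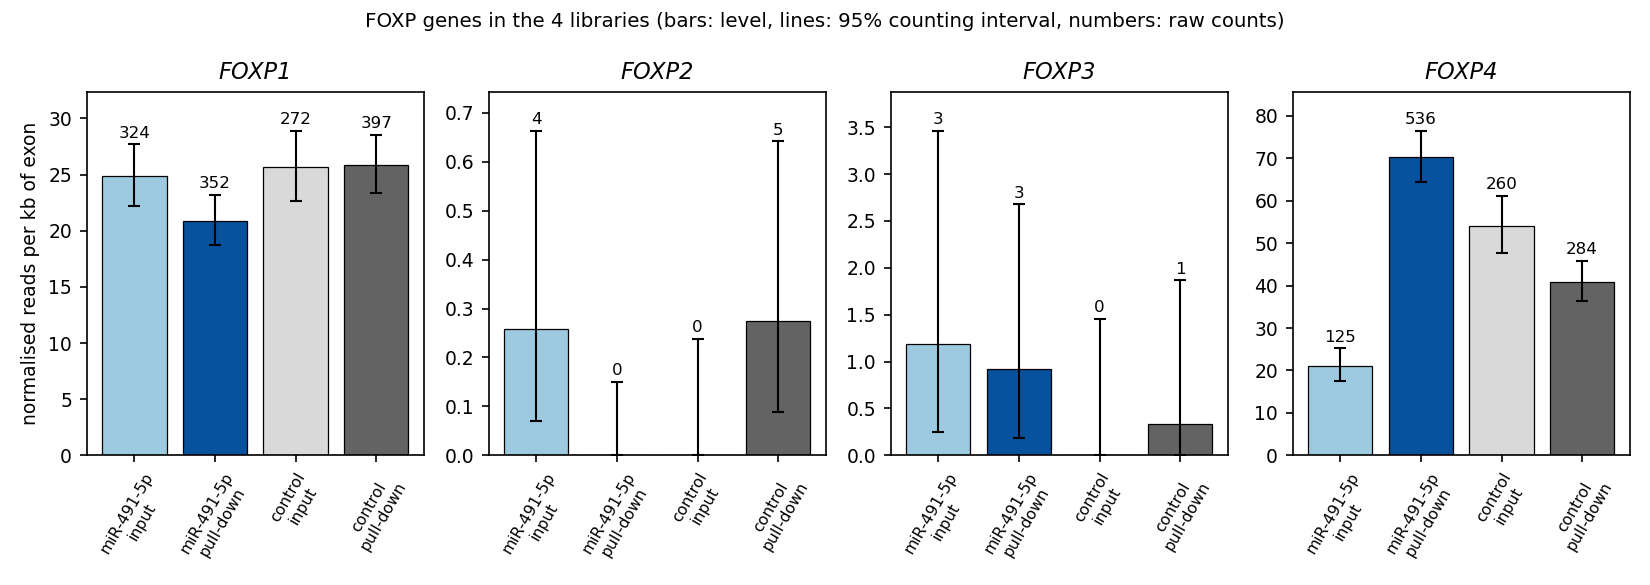
Levels of the 4 FOXP genes in each library, as normalised reads per kilobase of exon with 95% counting intervals (up to 3 reads where a library had 0) and raw counts above the bars; each panel has its own axis from 0. FOXP4 ranges from 21.2 in the miR-491-5p input to 70.2 in the miR-491-5p pull-down, while FOXP1 stays between 20.9 and 25.9 and FOXP2 and FOXP3 lie near 0.

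To compare the genes with each other, levels were divided by annotated exon length. With miR-491-5p the input levels of FOXP1 and FOXP4 were 24.8 (22.2 to 27.7) and 21.2 (17.6 to 25.2) normalised reads per kilobase, and these intervals overlap. In the other 3 libraries FOXP4 was the higher. On the miR-491-5p beads it had 70.2 and FOXP1 20.9. With the control miRNA it had 54.1 against 25.6 in the input and 40.9 against 25.9 on the beads, and in each of these libraries the intervals were apart. Averaged over the libraries, the order was FOXP4 at 46.6, FOXP1 at 24.3, FOXP3 at 0.609 and FOXP2 at 0.134. The intervals of FOXP3 and FOXP2 overlapped in 3 of the 4 libraries. The exon length joins the exons of every annotated isoform, so a gene expressed as a short isoform has its level per kilobase understated.

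In the inputs FOXP4 was 2.55-fold lower with miR-491-5p. Its input ratio was -1.35 (-1.66 to -1.04), the 26th lowest of all measured genes, of which 0.513% were called lower. FOXP1 had an input ratio of -0.05 (-0.28 to 0.19). The control input also held transcripts of hepatocytes that the other libraries nearly lacked. All 9 listed hepatocyte markers had more reads there than in the miR-491-5p input, and their summed normalised counts were 3440 there. They were 12.5 in the input with miR-491-5p, 24.3 on its beads and 19.5 on the control beads. The 6 fibroblast markers summed to 752 in the control input, 288 in the miR-491-5p input and 45.3 and 47.1 on miR-491-5p and control beads. DCN (46.0 against 25.7 normalised) and LUM (10.4 against 10.3) were higher in the miR-491-5p input, and COL1A1, COL1A2, COL3A1 and PDGFRB in the control input. The part of these transcripts in the input ratio of FOXP4 was not tested. The pull-down ratio, which uses neither input, is given next.

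In the pull-downs FOXP4 was higher with miR-491-5p, with a pull-down ratio of 0.78 (0.57 to 0.99), or 1.72-fold. That is short of the 2-fold limit, which 2.5% of genes passed as higher and 3.17% as lower, and 94.9% of measured genes had a value at or below it. FOXP1 had -0.31 (-0.51 to -0.10), so FOXP1 and FOXP4 lay on opposite sides of 0, each with an interval that excluded 0. Under scaling by total counts FOXP1 had -0.15 (-0.36 to 0.05), an interval that includes 0. The input ratio and the pull-down ratio have no library in common.

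The enrichment, the pull-down ratio over the input ratio, was 2.13 (1.76 to 2.50) for FOXP4, or 4.37-fold. The control input held the hepatocyte transcripts and the highest fibroblast sum. Without it, the miR-491-5p pull-down of FOXP4 stood 1.25 above the mean of the remaining 2 libraries, or 2.38-fold. Those 2 include the miR-491-5p input, whose fibroblast markers summed to 288. FOXP4 ranked 48th of 12662 genes, of which 4.46% were called higher and 5.32% lower. FOXP1 had an enrichment of -0.26 (-0.57 to 0.05), a value between the quartiles of all genes, -0.35 and 0.36. Of all measured genes 30.7% had a value at or below it. So 1 of the 4 FOXP genes was called enriched, 1 was measured and not called, and 2 were not measurable.

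Pull-down and input of 1 transfection come from the same lysates. On the miR-491-5p beads FOXP4 stood 3.30-fold above its input, at 1.72 (1.44 to 2.00), ranking 163rd of all genes, where 5.34% were called higher and 4.96% lower. On the control beads FOXP4 stood below its input, at -0.40 (-0.65 to -0.16). FOXP1 had -0.25 (-0.47 to -0.03) on the miR-491-5p beads and 0.01 (-0.21 to 0.24) on the control beads. On the control beads 8.61% of all genes were called higher and 10% lower, and neither FOXP1 nor FOXP4 was among them. The median gene lay at -0.15 on both kinds of bead. Scaling by total counts instead of size factors moved the median gene by 0.32 on the miR-491-5p beads, and FOXP1 then turned to 0.07 while FOXP4 had 2.04. Relative to the median gene, FOXP1 lay at -0.10 under either scaling and FOXP4 at 1.87.

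**Figure D2:**
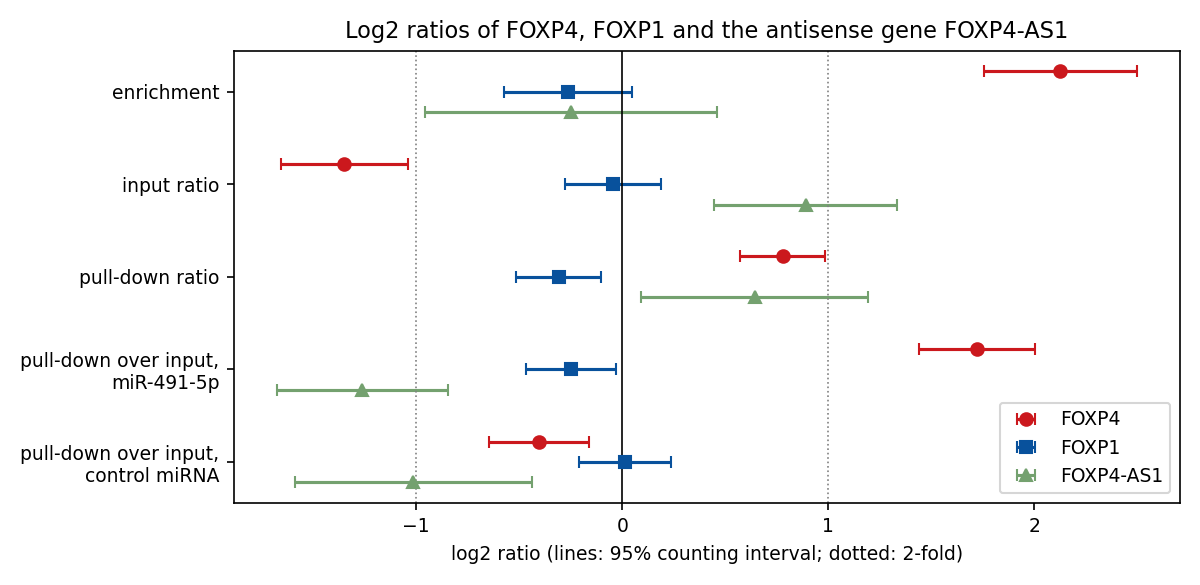
The 5 log2 ratios of FOXP4 (circles), FOXP1 (squares) and the antisense gene FOXP4-AS1 (triangles), with 95% counting intervals; dotted lines mark 2-fold. FOXP4 lies beyond 2-fold in the input ratio (-1.35), the enrichment (2.13) and the miR-491-5p beads over input (1.72), where FOXP1 stays within 2-fold in all 5.

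FOXP4 and FOXP1 were also set against each other within each library, which needs no scaling between libraries. With miR-491-5p there were 0.386 FOXP4 reads for each FOXP1 read in the input and 1.52 on the beads. With the control miRNA there were 0.956 and 0.715. From these counts the enrichment of FOXP4 exceeded that of FOXP1 by 2.40 (1.91 to 2.88) on the log2 scale, or 5.27-fold. The difference was -1.31 (-1.69 to -0.92) in the inputs and 1.09 (0.80 to 1.38) in the pull-downs. It was 1.98 (1.63 to 2.34) on the miR-491-5p beads and -0.42 (-0.75 to -0.09) on the control beads. All 5 intervals exclude 0, and they cover counting error alone. The 5 differences combine the same within-library ratios, so they are not separate results.

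Pull-down against input was tested over both transfections, 2 pull-downs against 2 inputs with the transfection as a block. In edgeR's quasi-likelihood test, with 1 residual degree of freedom, FOXP1 had a log2 fold change of 0.03 and a Benjamini-Hochberg adjusted p of 0.951. FOXP4 had 0.80 with an adjusted p of 0.271 in the same edgeR test, and its 2 transfections went opposite ways. Its log2 fold change ran from 0.19 without the miR-491-5p input to 1.54 without the control input, with no block, as 3 libraries leave no degree of freedom for one. Of all genes 8.23% were called, 5.58% (707) higher and 2.65% (335) lower. With no block edgeR called 583 higher and 288 lower. With no block and a library left out as well, none was called without the control input (2065 genes had an unadjusted p under 0.05), and 1 higher and 10 lower without the miR-491-5p input. Without the miR-491-5p pull-down these calls were 1191 and 706. The pairs had different miRNAs, so a gene that goes opposite ways in the 2 transfections adds to the spread in this test.

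Reads were counted without regard to strand, and reads on more than 1 gene were left out, so the genes that overlap FOXP genes bear on these counts. FOXP4-AS1, a long noncoding RNA gene on the opposite strand (ENSG00000234753, chromosome 6, 41494853 to 41548621), spans the start of FOXP4 but shares 0 exon bases with it. In the library order used above it had 133, 71, 58 and 41 reads, or 139, 57.4, 74.5 and 36.4 normalised. FOXP4-AS1 was therefore highest in the library where FOXP4 was lowest. Its input ratio was 0.89 (0.45 to 1.33), its pull-down ratio 0.64 (0.09 to 1.19) and its enrichment -0.25 (-0.96 to 0.46). It stood below its input on both kinds of bead, at -1.26 on the miR-491-5p beads and -1.01 on the others.

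FOXP1 holds 6 smaller annotated genes within or across its span, and none passed the minimum. The highest was ENSG00000242094, which shares no exon base with FOXP1 and lies at chromosome 3, 71570255 to 71574457, on the same strand. It had 8, 59, 7 and 39 reads, so it was above its input on both kinds of bead, at 2.38 (1.34 to 3.42) for miR-491-5p and 1.83 (0.71 to 2.96) for the worm miRNA, where FOXP1 itself was not. It was chosen for mention after its values were seen. FOXP1-AS1, on the opposite strand, had 0, 7, 0 and 2 reads, and the MIR1284 hairpin 0, 3, 0 and 0. At the 3′ end of FOXP3, on the opposite strand, CCDC22 (chromosome X, 49235467 to 49250526), which encodes a part of a complex for endosomal recycling, shares 91 exon bases with it. CCDC22 had 451, 622, 414 and 312 reads and an enrichment of 1.03 (0.76 to 1.31). Its input ratio was -0.17 (-0.37 to 0.02) and its pull-down ratio 0.86, and it stood at 0.09 on the miR-491-5p beads and -0.94 on the control beads. Reads within the shared bases were lost to both genes.

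Of 45 other forkhead genes in the table, 18 were measured and 27 were not. None of the 18 was called in enrichment in either direction, with 8 above 0 and 10 below and a median of -0.14, where all genes had 0.00. FOXP4 had the highest enrichment among them. The next were FOXJ1, which drives motile cilia, at 0.64 (0.49 to 0.79) and FOXM1, which drives genes of mitosis, at 0.61 (0.51 to 0.71). The lowest were FOXO3B at -0.88 (-1.43 to -0.33), a near copy of FOXO3 whose reads are uncertain, FOXN2 at -0.83 (-0.88 to -0.78) and FOXF1 at -0.68 (-1.37 to 0.01). FOXP1 was 12th of 19 when placed among the 18, inside their range. In the inputs FOXP4 was the lowest, below FOXF2 at -0.95. Of the 18, 14 were below 0 with a median of -0.15, where 51.0% of all genes were below 0 and their median was -0.01. In the pull-downs 14 of the 18 were below 0 as well, with a median of -0.33, where all genes had a median of 0.01. FOXF1 at -1.01 and FOXL2, with 74.4 against 150.1 normalised counts, were called lower there, as were 3.17% of all genes. FOXP4 was the highest of the 19 in this ratio.

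**Figure D3:**
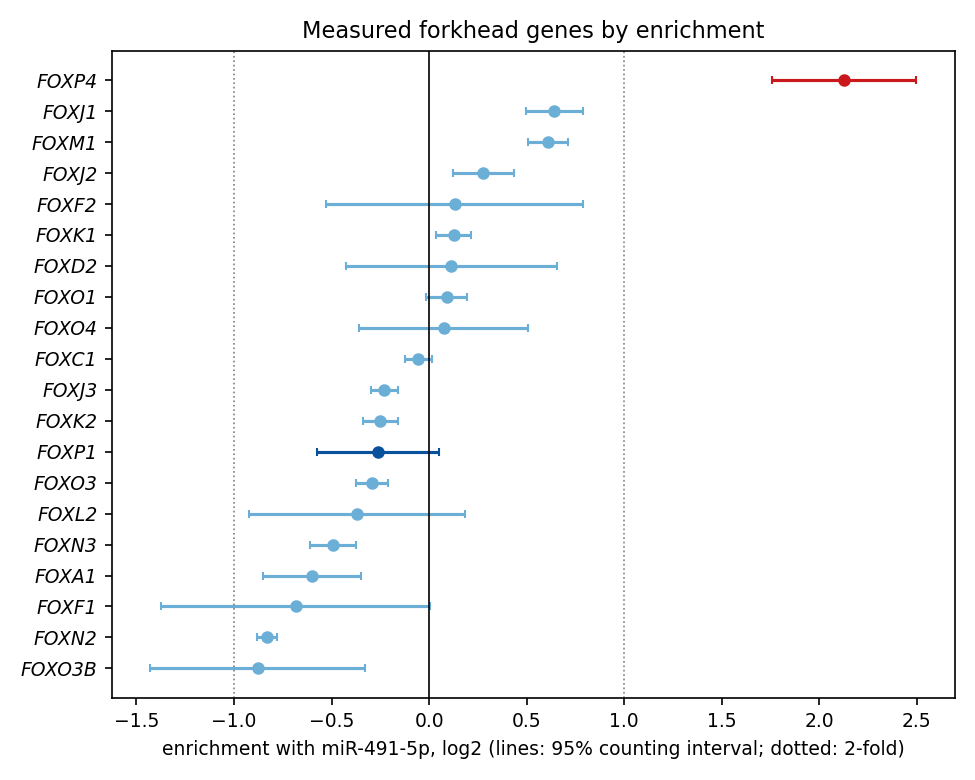
Enrichment with miR-491-5p (log2, with 95% counting intervals) of the 20 measured forkhead genes, in order; dotted lines mark 2-fold. FOXP4 at 2.13 stands apart from FOXJ1 at 0.64, the next highest, while FOXP1 at -0.26 lies among the other genes.

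On each kind of bead 14 of the 18 forkhead genes lay above the median gene. With miR-491-5p their median was 0.19 and none was called, where 5.34% of all genes were called higher. On the control beads it was 0.22, and 4 of the 18 were called higher, where 8.61% of all genes were. They were FOXO3B, FOXF1, FOXA1 and FOXK2, at 1.11, 1.08, 1.03 and 1.01. FOXK2 and FOXK1 are ubiquitous forkhead repressors, and FOXA1 is a pioneer factor of epithelia. FOXP4 was the highest of all on the miR-491-5p beads and 16th of 19 on the control beads. Both measured FOXP genes lay in the lower part of the forkhead genes by level. FOXP4 was 15th of 19 by its mean level per kilobase over the 4 libraries and FOXP1 17th. In the control input alone FOXP4 was 13th and FOXP1 17th, and in the miR-491-5p input 18th and 16th. By the mean, the other 18 ran from 22.3 for FOXF1 to 2157 for FOXN2 with a median of 267.

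**Figure D4:**
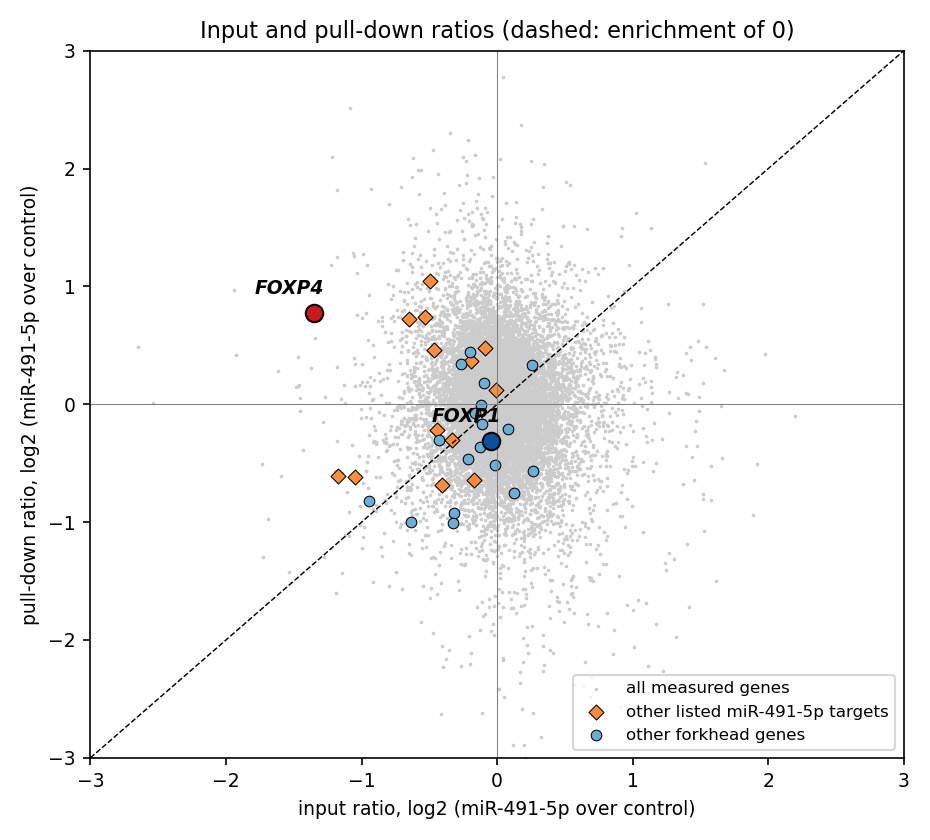
Input ratio (horizontal) and pull-down ratio (vertical), both log2 of miR-491-5p over control, for all measured genes (grey; 16 of 12662 lie outside the axes), other forkhead genes (blue) and other listed miR-491-5p targets (orange); points above the dashed line have an enrichment above 0. FOXP4 (-1.35, 0.78) lies far to the left and above 0, and FOXP1 (-0.05, -0.31) lies within the cloud.

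Among all genes, 65 were called lower in the inputs and 676 higher on the miR-491-5p beads, and 29 were both, FOXP4 among them. These ratios share the miR-491-5p input, so a low value there moves both. The pull-down ratio shares no library with the input ratio. It was above 0, with an interval that excluded 0, in 17 of the 65 (26.2%), against 38.7% of all genes. Among the 29 it was so in 14, FOXP4 included. The 65 genes include 7 of the hepatocyte markers, which had nearly all of their reads in the control input. These markers passed the minimum through that library. With few or no reads on the beads, their pull-down ratio could hardly exclude 0. The shares of 26.2% and 38.7% are therefore a description. Of 13 other measured genes listed as reported targets, all had an input ratio below 0, as 51.0% of all genes had, and none was as low as FOXP4. Of the 13, HMGA2 at -1.17 and EGFR at -1.05 were called lower, where 0.513% of all genes were. The median enrichment of the 13 was 0.56. FGFR4, a growth factor receptor, had 1.54, GIT1, a scaffold of focal adhesions, 1.37, and BCL2L1, which encodes the survival protein BCL-xL, 1.27. These were the 3 called higher, where 4.46% of all genes were.

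The genes whose 4 values were most like those of FOXP4 were found by the Euclidean distance between log2 normalised counts centred on each gene. Of the 5 nearest, 4 are reported by name. They were OSBP2, an oxysterol-binding protein gene, at a distance of 0.271, CDC42EP2, an effector of the GTPase CDC42, at 0.295, CTXN1 at 0.351 and NR0B2, which encodes the corepressor SHP, at 0.360. Chosen for likeness to FOXP4, these 4 were lowest in the miR-491-5p input and highest in its pull-down. CTXN1 was so by little, with 72.8 normalised counts in that pull-down against 72.0 in the control input. The pull-down ratio of CTXN1 was 0.31 with a counting standard error of 0.23. CDC42EP2 had 219, 687, 429 and 402 normalised counts and an enrichment of 1.74. NR0B2 had 171, 542, 402 and 239 and an enrichment of 2.40. OSBP2 and CTXN1 rest on 26 reads each in the miR-491-5p input. OSBP2 had 27.2, 74.4, 55.3 and 44.4 normalised counts in the same order. It passed the minimum of 50 narrowly, and only with its miR-491-5p pull-down included, the library where genes like FOXP4 are high. In all, 20 genes lay within 0.5 of FOXP4. By Pearson correlation over the 4 libraries 1 of them, OSBP2, was again among the nearest 5.

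FOXP1 had close matches in many genes. C6orf62 at 0.0194, EIF2AK4, which encodes the amino acid sensing kinase GCN2, at 0.0248, and ARMCX5 at 0.0254 were the nearest 3, and 4542 genes lay within 0.5. C6orf62 had an enrichment of -0.23, EIF2AK4 of -0.23 and ARMCX5 of -0.29, and the least covered of the 3, ARMCX5, had 1941 to 2838 reads. By Pearson correlation none of these 3 was among the nearest 3. The distance counts all nearly flat profiles as close to each other, and FOXP1 had such a profile.

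**Figure D5:**
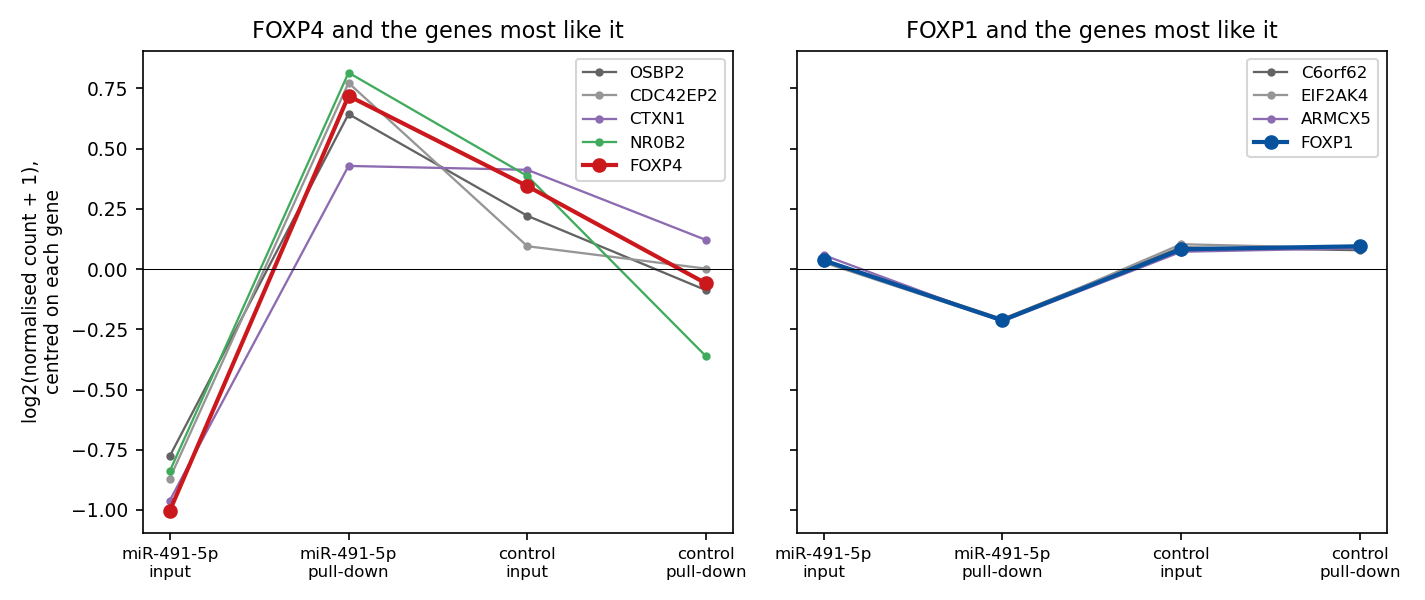
Log2(normalised count + 1), centred on each gene, in the 4 libraries for FOXP4 with 4 of its 5 nearest genes (left) and FOXP1 with its 3 nearest (right). The FOXP4 group is lowest in the miR-491-5p input and highest in its pull-down, and the FOXP1 group stays within a narrow band.

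FOXP proteins work with the NuRD deacetylase complex, CtBP, and NFAT and RUNX factors. Of 36 listed partners 27 were measured. In enrichment 2 were called higher and none lower, with 17 above 0 and a median of 0.23. Over all genes 4.46% were called higher and 5.32% lower, so the share of partners is near the background. MBD2, the methyl-DNA-binding subunit of NuRD, was one of those called higher. It had 8823, 13072, 10848 and 7839 normalised counts in the library order used above and an enrichment of 1.04 (0.98 to 1.09). YY1, a zinc finger factor, had the lowest enrichment of the list, -0.97 (-1.01 to -0.92). In the inputs none of the 27 was called.

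Of 19 genes described as regulated by FOXP proteins, mostly in brain or T cells, 6 were measured. CDKN1A, which encodes the cell cycle inhibitor p21, had an enrichment of -1.32 (-1.91 to -0.73) and IKZF2, a zinc finger gene of regulatory T cells, -1.31 (-1.42 to -1.20). HSPB1, a small heat shock protein gene, had 0.83 (0.73 to 0.94). The first 2 of the 6 were called, both lower, where 5.32% of all genes were, and the median of the 6 was -0.12. In the inputs none was called, with 3 above 0 and 3 below. The partners, regulated genes and reported targets were listed from general knowledge.

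The labelled cell type was checked by its markers. Of 12 markers of ovarian carcinoma and epithelium, 10 were matched by position to a gene of the table and 9 were measured. A marker not matched in this way is not shown to be absent. PAX8 had 7352 to 16006 reads and KRT8 34219 to 39468. WFDC2 was at 0 in all 4 libraries. For FOXP3, the 10 listed T cell genes were checked, and 1 was measured, IKZF2 with 1450 to 6175 reads. PTPRC, the pan-leukocyte gene of CD45, had 12 to 28 reads and CD8A 0 to 16. The other 7 had 0 to 4 reads in each library, CTLA4 with 0 in all. The 3 B cell markers summed to 3 to 10 reads, and of 4 neuronal markers SNAP25 alone was measured, with 135 to 528 reads. TUBB3, at 0 reads, is matched loosely by position and may not be that gene.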

How the data were processed

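RNA of 4 libraries was analysed, 1 in each group, each of RNA pooled from 3 experiments, so intervals measure counting error only. The deposited table gives raw counts of reads for each gene. Per the file headers, the authors counted with featureCounts 1.5.0-p1 on the exons of GENCODE release 24 (hg38), without strand and without reads marked as duplicates. STAR, GRCh38 and DESeq2 1.10.1 appear in the submitters' processing notes. The deposited table also gives each gene's exon length, used here for levels per kilobase. Groups came from sample titles.

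Size factors were taken with DESeq2 1.42.0, and pull-down against input was tested with edgeR 4.0.16 (TMM factors, transfection as a block, FDR under 0.05 and at least 2-fold). Standard errors were computed from counts plus 0.5, and an interval is 1.96 of them on each side. The 12662 genes measured held 99.7% of reads. Genes were named by position against RefSeq (GRCh38.p14). Both ends lay within 20 bp, or the overlap was at least 0.4 and clearly best with an end within 2000 bp, or an end of a coding gene lay within 20 bp. FOXP4-AS1 was named by 1 shared end, and 11603 measured genes had a name. FOXL2NB, which shares only the name of the forkhead genes, was left out of them. All 4 members and the lists were chosen with earlier results of these data known. The text names the FOXP genes, measured genes that overlap them, the 5 genes nearest to FOXP4 and the 3 nearest to FOXP1, and the 3 largest absolute enrichments of each list, and says where it goes beyond these; other forkhead and marker genes are named as examples. A few genes that this rule would name are not reported here. The steps were tested on simulated data. For the ratios these data held counting error alone, and for edgeR each changed gene moved alike in both transfections. They cover neither variation between cultures in the ratios nor, in edgeR, a gene that goes opposite ways.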

Additional observations from a re-analysis of the deposited data

Results flagged for a closer look

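FOXP4 went opposite ways on the 2 kinds of bead, at 1.72 over its input on the miR-491-5p beads and at -0.40 on the control beads, and both counting intervals excluded 0. The difference was not tested, since each group has 1 library. Of 22 genes named by rule and reported, 9 did so, FOXP4 included, as did 1767 of all 12662 measured genes. Under scaling by total counts 8 of the 22 did, and 14.9% of all measured genes. FOXN2 and CDKN1A then no longer did, and CCDC22 did. Above the input with miR-491-5p and below it with the control were NR0B2 (1.65 and -0.75), GIT1 (1.05 and -0.32), BCL2L1 (0.81 and -0.46), FGFR4 (0.71 and -0.83) and MBD2 (0.57 and -0.47). Below it with miR-491-5p and above it with the control were CDKN1A (-0.59 and 0.73), YY1 (-0.45 and 0.52) and FOXN2 (-0.27 and 0.56). None of these differences was tested. The genes were partly chosen for large or FOXP4-like values, so their number is a description.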

How the results depend on the processing

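Of 54 recomputed values of FOXP1 and FOXP4, 51 moved by no more than the reach of their counting interval. Under total counts FOXP4 on the miR-491-5p beads had 2.04 and FOXP1 there reversed to 0.069. Without the control input, FOXP4 in the miR-491-5p pull-down lay 1.25 above the mean of the other 2 libraries, an alternative added after the data were seen. With all 4 libraries the enrichment of FOXP4 ran from 2.09 to 2.38 and that of FOXP1 from -0.28 to -0.01 over 6 alternatives each. Over 8 alternatives of the edgeR test and DESeq2, the log2 fold change of FOXP4 ran from 0.19 to 1.54. Its adjusted p ran from 0.127 to 0.857 and that of FOXP1 from 0.504 to 0.988, so neither gene was called in any. Leaving out 1 library each, with no block, gave 0 to 1191 genes higher and 0 to 706 lower, against 583 and 288 with no block and all libraries. No paired analysis by replicate number was possible because each group has 1 library.

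Counts over all genes moved more. Under total counts 896 were enriched and 447 depleted (66.7% higher against 45.6%), 532 higher and 262 lower in the pull-downs (67.0% against 44.0%), 1314 and 130 on the miR-491-5p beads (91.0% against 51.8%) and 821 lower on the control beads (62.9% higher against 46.2%). With a minimum of 10 the counts were 1094 and 1137 for the enrichment, 409 and 366 for the inputs, 823 and 807 for the pull-downs, 2098 higher on the miR-491-5p beads and 2480 higher on the control beads. With no filter they were 1275 and 1302, 479 and 476, 1175 and 1199, 2624 and 1023, and 2850 higher on the control beads. In edgeR they were 1317 and 722 with no filter, and 201 lower under total counts. At a minimum of 10, 1 other forkhead gene was called enriched and 1 depleted, beside the 1094 and 1137 of all genes. Neither the number of forkhead genes measured at this minimum nor the shares of all genes are given. These forkhead counts therefore cannot be read against the background and are a description. Depth limits FOXP2 and FOXP3, which had 9 and 7 reads in all.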
